A study of Mus musculus with 18 samples.

Results

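The growth arrest and senescence genes followed here were 10 genes fixed by name: Cdkn1a, Cdkn1b, Cdkn2a, Cdkn2b, Cdkn2c, Gadd45a, Gadd45b, Gadd45g, Trp53 and Mdm2. They were taken from the 23420 genes of an RNA-seq table of mouse hindlimb muscle, by a rule that names them and uses no measured value, although the list was drawn up with earlier results of these data known. All 10 were found in the table, and 9 passed a mean normalized count of at least 10, the filter that left 13178 genes for testing. Cdkn2a did not pass and is described by its reads alone.

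The muscle came from female C57BL/6J mice, an inbred laboratory strain, at 2 months (young, 2 m), 20 months (aged, 20 m) and 28 months (superaged, 28 m). RNA-seq was made from 3 mice per age, 9 libraries in all, with no genetic change and no treatment named for any group. DNA of 3 mice per age was combined into 1 pool for methyl-CpG-binding-domain capture and sequencing (MBD-seq), in muscle and in splenic T cells, and these pools gave a second readout at the same genes. The muscle was whole tissue, so fewer cells of a type and less RNA per cell cannot be told apart in any value below.

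Cells leave the division cycle when cyclin-dependent kinase (CDK) inhibitors block the kinases that inactivate the retinoblastoma protein. The Cip/Kip inhibitors (p21 from Cdkn1a, p27 from Cdkn1b) act on several cyclin-CDK complexes, and the Ink4 inhibitors (from Cdkn2a, Cdkn2b and Cdkn2c) on CDK4 and CDK6. The transcription factor p53, encoded by Trp53 and degraded through the ubiquitin ligase Mdm2, induces Cdkn1a, Gadd45a and Mdm2 after DNA damage, and the Gadd45 proteins are small stress-induced adaptors that bind p21, PCNA and the MAP kinase kinase kinase MEKK4. Muscle fibres are permanently out of the cycle, and in muscle Cdkn1a and Gadd45a are also known as genes that rise after loss of innervation.

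The 3 Gadd45 genes are close paralogs that moved in different directions with age, so the sequences at their starts are shown before their values. Each runs from 250 bases before to 50 bases after the RefSeq start on GRCm38.p6, 5′ to 3′ on the gene's own strand, with every TATAAA and CCAAT in capitals. Gadd45a lies on chromosome 6 (67035096 to 67037407, minus strand), Gadd45b on chromosome 10 (80930091 to 80932204, plus strand) and Gadd45g on chromosome 13 (51846675 to 51848475, plus strand), and each has 4 exons.
Gadd45a, chr6:67037358-67037657, minus strand: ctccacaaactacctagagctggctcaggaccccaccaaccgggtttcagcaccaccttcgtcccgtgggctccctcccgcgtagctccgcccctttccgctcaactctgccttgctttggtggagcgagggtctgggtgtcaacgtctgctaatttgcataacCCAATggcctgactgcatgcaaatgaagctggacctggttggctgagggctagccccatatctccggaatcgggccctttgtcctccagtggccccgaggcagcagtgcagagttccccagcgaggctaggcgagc
Gadd45b, chr10:80929841-80930140, plus strand: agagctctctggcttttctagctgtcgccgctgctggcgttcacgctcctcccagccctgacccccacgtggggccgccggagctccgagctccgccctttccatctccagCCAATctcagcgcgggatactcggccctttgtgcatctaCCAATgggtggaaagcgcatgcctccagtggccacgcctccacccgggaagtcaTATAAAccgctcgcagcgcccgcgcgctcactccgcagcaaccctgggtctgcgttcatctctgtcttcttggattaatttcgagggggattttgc
Gadd45g, chr13:51846425-51846724, plus strand: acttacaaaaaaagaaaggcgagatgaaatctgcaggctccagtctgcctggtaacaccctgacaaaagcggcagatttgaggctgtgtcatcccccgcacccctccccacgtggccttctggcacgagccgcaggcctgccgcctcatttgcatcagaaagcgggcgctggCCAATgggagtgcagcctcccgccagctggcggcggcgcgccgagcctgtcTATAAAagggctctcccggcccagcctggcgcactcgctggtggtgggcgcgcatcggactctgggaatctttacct
Gadd45b had TATAAA with its first base 46 bases before the start, and Gadd45g had it 27 bases before. The letters TATAAA were not in the Gadd45a window. All 3 windows held CCAAT on the gene's strand, at 86 bases before the start in Gadd45a, at 139 and 100 bases in Gadd45b and at 78 bases in Gadd45g. Searched on both strands, TATAAA was in 13.7% and CCAAT in 37.6% of 32619 RefSeq promoter windows of this length. A match describes the letters and is not evidence of a bound factor.

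Cdkn2a encodes unrelated proteins from separate first exons, p19Arf from the upstream start and p16Ink4a from the downstream start. The window at the downstream start is shown because it had the largest MBD-seq difference on the log2 scale from 2 m to 28 m among the starts of the 10 genes, with its CpGs, the bases that MBD capture reads, in capitals.
Cdkn2a downstream start, chr4:89282143-89282442, minus strand: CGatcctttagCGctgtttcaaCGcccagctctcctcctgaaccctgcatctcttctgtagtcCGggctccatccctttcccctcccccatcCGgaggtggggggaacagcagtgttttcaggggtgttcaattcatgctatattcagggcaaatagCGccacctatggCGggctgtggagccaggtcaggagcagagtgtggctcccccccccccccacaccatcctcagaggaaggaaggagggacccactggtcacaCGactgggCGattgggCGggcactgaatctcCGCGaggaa
This window held 12 CpGs, against 45 at the upstream start of the same gene and a median of 7 over the 32619 windows. Over the 13 curated starts of the 10 genes the median was 21 CpGs, with a range from 2 at the upstream start of Cdkn1a to 45.

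Each RNA library held between 20203833 and 71115244 reads on genes. The ribosomal RNA precursor Rn45s took 24 to 30.4% of them in the libraries numbered 1 and 2 of each age and 8.81 to 10.4% in those numbered 3. The 2 m library 1 stood apart, with a summed level of 7 neutrophil and marrow markers of 5140 normalized counts against 14.9 to 74.2 in the other 8 libraries, and the highest sums of 6 bone and cartilage markers (3934 against 330 to 1614) and of 4 erythroid markers. Fibre markers were high throughout (10 markers summing to 4741585 to 5900710), which matched the label of muscle. T and NK cell markers were near 0, with 6 markers summing to 5.29 to 28.3 and none passing the filter. The tests below were limma fits over all 9 libraries on log2 of the normalized count plus 1, adjusted over the 13178 genes by Benjamini and Hochberg. Both older ages were compared with the same 3 young libraries, so those 2 comparisons are not independent of each other.

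Of the 9 genes tested, 3 were lower at 20 m than at 2 m and none was higher at an adjusted p under 0.05 (limma). Over all genes 16.6% were called in this comparison, 9.42% higher and 7.13% lower. At 28 m against 2 m, 5 of the 9 were called, 2 higher and 3 lower, where 13.8% of all genes were called, 7.53% higher and 6.24% lower. Between 20 m and 28 m 1 of the 9, Gadd45a, was called and was higher, where 0.379% of all genes were called, 0.212% higher and 0.167% lower. With both older ages against 2 m, 5 of the 9 were called, beside 20.1% of all genes.

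**Figure D1:**
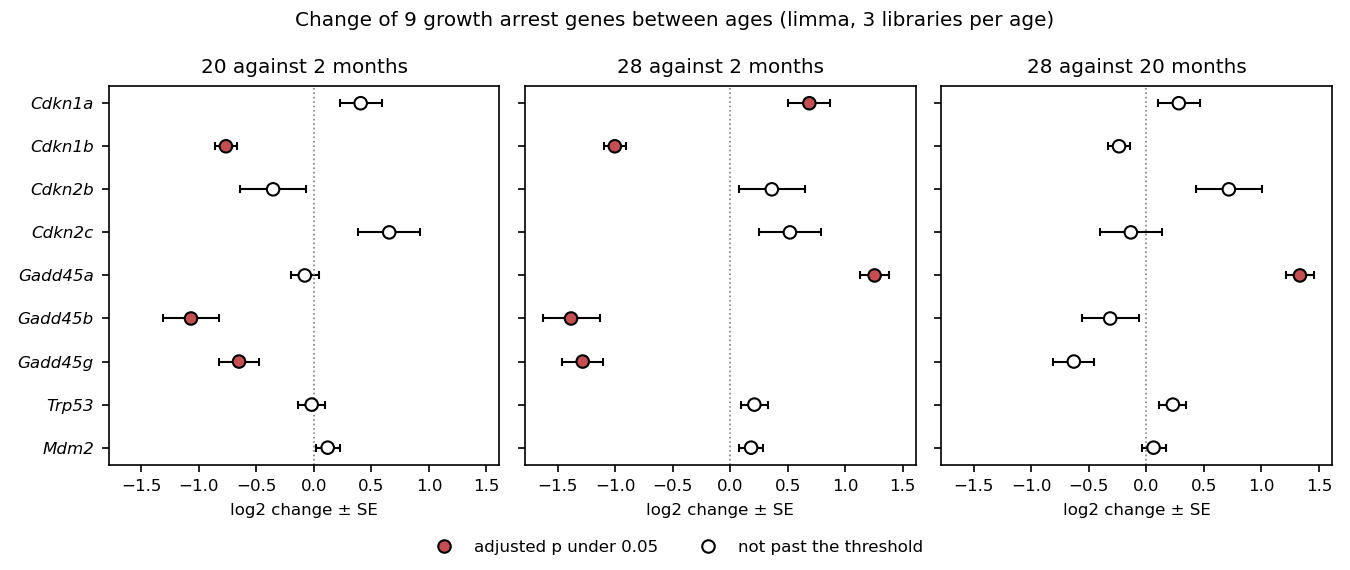
The log2 change of each of the 9 tested genes with its standard error (limma, 3 libraries per age), in 3 panels for 20 m against 2 m, 28 m against 2 m and 28 m against 20 m. Filled points have an adjusted p under 0.05: 3, 5 and 1 of the 9 genes.

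The median absolute log2 change of the 9 genes was 0.41 at 20 m against 2 m and 0.69 at 28 m against 2 m, beside 0.23 and 0.21 over all genes tested. Between 20 m and 28 m it was 0.28, beside 0.14. The signed medians were small at -0.08, 0.21 and 0.06 in the 3 comparisons, since falls and rises were both present. By the criterion of a fold over 2 with an unadjusted p under 0.05, 1 of the 9 (Gadd45b) passed at 20 m against 2 m, 4 at 28 m against 2 m and 1 at 28 m against 20 m, where 5.17, 5.14 and 1.31% of all genes passed. Library values did not overlap between the ages for 4, 7 and 7 of the genes in these comparisons, where they did not overlap for 36, 30.3 and 17.5% of all genes.

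**Figure D2:**
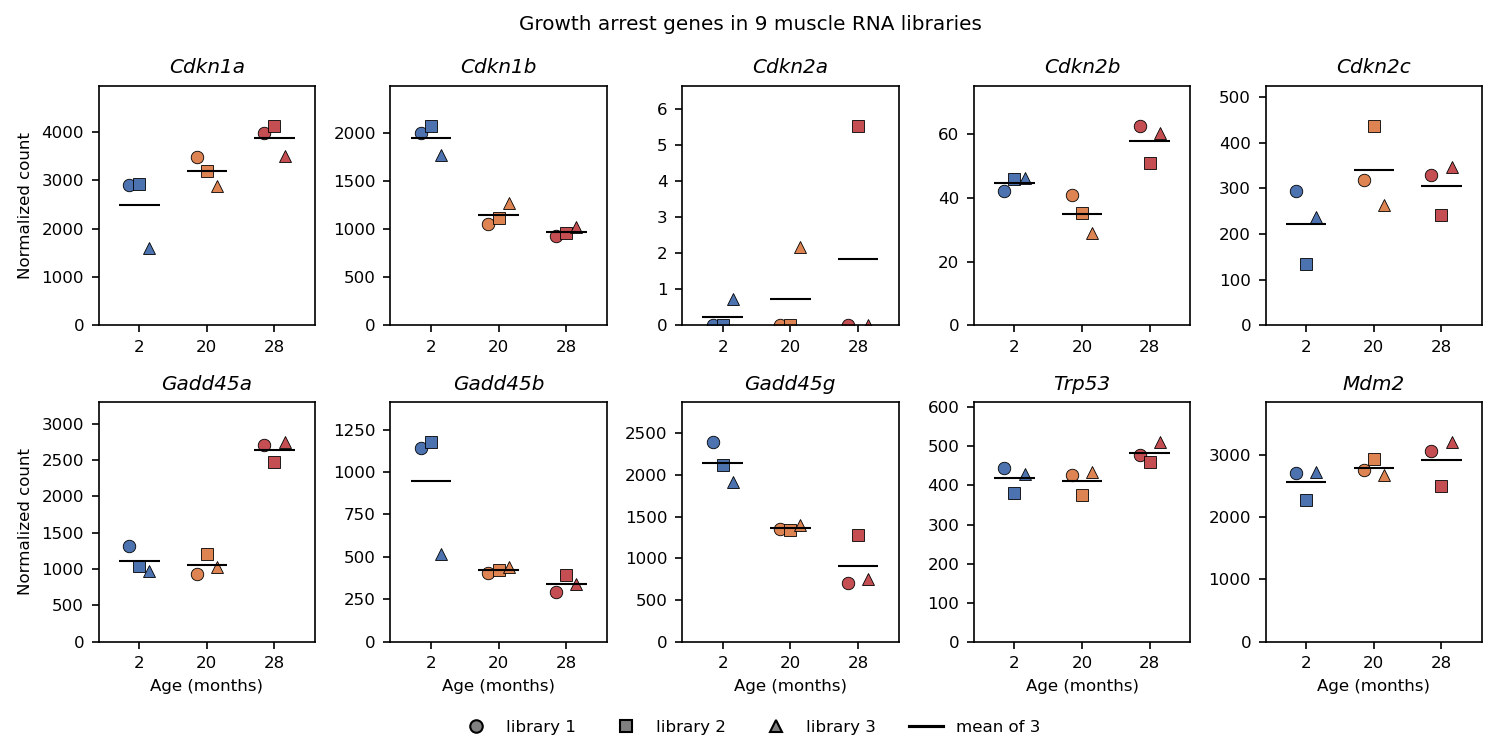
Normalized counts of the 10 genes in each of the 9 muscle RNA libraries, by age in months, with the library number as the symbol and the mean of 3 as a line. Gadd45a is higher in each 28 m library than in every younger one, whereas Cdkn1b, Gadd45b and Gadd45g are already lower at 20 m.

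Cdkn1a, which encodes the p53-induced inhibitor p21 (chromosome 17, 29090979 to 29100722, plus strand), was 1.61-fold higher in superaged than in young muscle. Its normalized counts were 2909, 2932 and 1611 in the 2 m libraries 1, 2 and 3, 3476, 3202 and 2876 at 20 m, and 3974, 4127 and 3509 at 28 m. All 3 libraries at 28 m lay above every library of both other ages, while the 20 m and 2 m libraries overlapped and the 2 m library 3 was far below the other young libraries. The log2 change was 0.69 (SE 0.183, adjusted p = 0.0261, limma) at 28 m against 2 m. At 20 m against 2 m it was 0.41 (adjusted p = 0.149, limma), and at 28 m against 20 m 0.28 (adjusted p = 0.634, limma).

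The low young library was the one numbered 3, the group that also had less Rn45s. Within the libraries numbered 1 the log2 change of Cdkn1a at 28 m against 2 m was 0.45, within those numbered 2 it was 0.49 and within those numbered 3 it was 1.12. Using only the libraries numbered 1 and 2, the change was 0.47 (adjusted p = 0.0161, limma). Without the 2 m library 3 alone it was 0.40 at 28 m (adjusted p = 0.0247, limma) and 0.12 at 20 m against 2 m (adjusted p = 0.458), and with both older ages together it fell from 0.55 to 0.26 and was no longer called (adjusted p = 0.0696). The call at 28 m against 2 m was lost without the 28 m library 1 (adjusted p = 0.0853, limma), without the 28 m library 2 (adjusted p = 0.0876) and in a fit of those ages alone (adjusted p = 0.0501). The 20 m against 2 m change was called only when the library number was a block (adjusted p = 0.0329, limma) or when the libraries numbered 3 had a term of their own (adjusted p = 0.0302).

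Cdkn1b (chromosome 6, 134920401 to 134925525, plus strand) encodes p27, the Cip/Kip inhibitor typical of quiescent and differentiated cells, and its level fell with age where that of Cdkn1a rose. It was at 2006, 2076 and 1775 normalized counts at 2 m, 1052, 1122 and 1275 at 20 m, and 932, 957 and 1029 at 28 m. No older library reached the lowest young library, and the 28 m libraries lay below all 20 m libraries. The young mean was 1.70-fold the 20 m mean on the fitted scale, a log2 change of -0.76 (SE 0.0981, adjusted p = 0.00031, limma). At 28 m against 2 m the log2 change was -1.003 (adjusted p = 5.66e-05, limma), whereas the further difference of -0.24 between 20 m and 28 m did not pass (adjusted p = 0.418). An exact permutation test of 3 young against 6 older libraries gave p = 0.0238 for Cdkn1b, the smallest that it allows. The same exact permutation test gave p = 0.0238 for Gadd45b and Gadd45g, but 0.0714 for Cdkn1a and 0.357 for Gadd45a, which the limma fit called for both older ages against 2 m. The fall was called in all 23 alternative fits of each comparison with young muscle, with a log2 change between -0.91 and -0.70 at 20 m and between -1.11 and -0.95 at 28 m.

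Among the Ink4 genes none passed the test, and 1 was barely detected. Cdkn2a (chromosome 4, 89274473 to 89294619, minus strand) had 9 reads in all 9 libraries, 1 in the 2 m library 3, 4 in the 20 m library 3 and 4 in the 28 m library 2, and 0 in the other 6. A count of 0 allows up to 3 reads, or 1.63 to 6.69 normalized counts depending on the depth of the library, so all 9 values were at or near the limit of detection. Gene counts do not tell p16Ink4a from p19Arf, and a difference between ages was not detectable at this depth.

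Cdkn2b encodes p15Ink4b and lies on the same chromosome, just beyond the upstream start of Cdkn2a, at 89306289 to 89311032 (minus strand). Its normalized counts were 42.3, 45.8 and 46.2 at 2 m, 41.1, 35.4 and 28.9 at 20 m, and 62.6, 51.1 and 60.4 at 28 m. The order of the ages was 20 m, 2 m and 28 m, with no overlap between any pair of ages. None of these differences passed, with log2 changes of -0.35 (adjusted p = 0.426, limma), 0.36 (adjusted p = 0.446) and 0.72 (SE 0.286, adjusted p = 0.393) for 20 m against 2 m, 28 m against 2 m and 28 m against 20 m. The gene rested on 19 to 64 reads per library.

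Cdkn2c encodes p18Ink4c, an Ink4 inhibitor of differentiating muscle cells (chromosome 4, 109660876 to 109666756, minus strand). It had 294, 134 and 238 normalized counts at 2 m, 318, 437 and 265 at 20 m, and 330, 242 and 347 at 28 m. The 3 ages overlapped, and the spread within an age reached 2.2-fold at 2 m. The log2 change was 0.65 (SE 0.269, adjusted p = 0.116, limma) at 20 m and 0.52 (adjusted p = 0.23) at 28 m against 2 m. With both older ages together against 2 m it was 0.59 (adjusted p = 0.0958, limma), and this passed only without the 2 m library 1 (adjusted p = 0.0469). Without the low 2 m library 2 the changes were 0.33 at 20 m (adjusted p = 0.354, limma), 0.19 at 28 m (adjusted p = 0.625) and 0.26 for both (adjusted p = 0.404).

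Gadd45a rose between 20 m and 28 m, with no change called before. Its normalized counts were 1320, 1045 and 978 at 2 m, 925, 1210 and 1023 at 20 m, and 2710, 2471 and 2748 at 28 m. The 2 m and 20 m libraries overlapped, and every 28 m library was at least 1.87 times every other library. The log2 change was -0.08 (SE 0.124, adjusted p = 0.703, limma) from 2 m to 20 m, 1.33 (adjusted p = 0.00032) from 20 m to 28 m and 1.26 (adjusted p = 6.12e-05) from 2 m to 28 m, a 2.39-fold rise. The late step minus the early step was 1.41 (SE 0.215, adjusted p = 0.00379, limma), a contrast added after the values had been seen, in which 4.42% of all genes and no other of the 9 genes were called. The rises at 28 m against both younger ages were called in each of 23 alternative fits, with a log2 change of at least 1.14 against 2 m and 1.25 against 20 m.

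Reads from a neighbour on the opposite strand can overlap Gadd45a, since the library kit does not mark the strand. Reads wholly within exon bases of both genes can be set aside as ambiguous and counted for neither. The non-coding RNA E230016M11Rik shares 238 exon bases with Gadd45a. It was at 1.69 to 11.2 normalized counts in the 9 libraries, far below Gadd45a in each.

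Gadd45b was already lower at 20 m. Its normalized counts were 1139, 1177 and 517 at 2 m, 405, 420 and 440 at 20 m, and 294, 391 and 338 at 28 m. No older library reached the lowest young library, but that library, numbered 3, was at 45.4% of the next lowest. The log2 change was -1.07 (SE 0.248, adjusted p = 0.012, limma) at 20 m and -1.38 (adjusted p = 0.00311) at 28 m against 2 m, and -0.31 (adjusted p = 0.709) between the older ages. Within the libraries numbered 3 the change at 28 m against 2 m was -0.61, against -1.95 and -1.59 within those numbered 1 and 2. Without the 2 m library 1, the one with the marrow markers, the change at 20 m was -0.89 (adjusted p = 0.055, limma) and that at 28 m was -1.20 (adjusted p = 0.0187).

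Gadd45g was lower at both older ages than at 2 m. It had 2394, 2116 and 1914 normalized counts at 2 m, 1345, 1336 and 1393 at 20 m, and 702, 1273 and 753 at 28 m. The ages did not overlap in any pair, although the 28 m library 2 was close to the 20 m libraries and far from the other superaged ones. The log2 change was -0.65 (SE 0.177, adjusted p = 0.0255, limma) at 20 m and -1.28 (adjusted p = 0.000528) at 28 m against 2 m. From 20 m to 28 m it was -0.63 (adjusted p = 0.18, limma), and -0.90 (adjusted p = 0.0072) without the 28 m library 2. The call at 20 m against 2 m was lost in 6 of 23 alternative fits, among them the one without the 2 m library 1 (-0.57, adjusted p = 0.0948, limma), the one with only the libraries numbered 1 and 2 (-0.75, adjusted p = 0.0666), the one with libraries rescaled to equal sums (-0.64, adjusted p = 0.109) and those without any single 20 m library (adjusted p from 0.053 to 0.0816).

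Neither Trp53 nor Mdm2 was called in any comparison between ages. Trp53 (chromosome 11, 69580348 to 69591873, plus strand) was at 446, 381 and 429 normalized counts at 2 m, 428, 376 and 434 at 20 m, and 478, 461 and 511 at 28 m. The 28 m libraries lay above all others, but the log2 changes of 0.21 (SE 0.116, adjusted p = 0.263, limma) against 2 m and 0.23 (adjusted p = 0.516) against 20 m did not pass. Mdm2 (chromosome 10, 117688875 to 117710758, minus strand), both a target and an inhibitor of p53, was at 2713, 2275 and 2720 at 2 m, 2754, 2924 and 2675 at 20 m, and 3063, 2497 and 3205 at 28 m. Its ages overlapped, and its log2 change was 0.12 (adjusted p = 0.467, limma) at 20 m and 0.18 (SE 0.105, adjusted p = 0.281) at 28 m against 2 m. RNA levels do not measure p53 protein or its activity.

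Levels of different genes were compared per kilobase of exon. Averaged over the 9 libraries, Cdkn1a was the highest at 1562 normalized counts per kilobase, followed by Gadd45g at 1360, Gadd45a at 1310 and Mdm2 at 890. Cdkn1b was at 565, Gadd45b at 449, Trp53 at 235, Cdkn2c at 128 and Cdkn2b at 33.0, and Cdkn2a at 0.824. The order changed with age: at 2 m Gadd45g led at 1981 per kilobase with Gadd45a at 910, whereas at 28 m Gadd45a led at 2159 with Cdkn1a at 1901 and Gadd45g at 841. At 28 m Gadd45a spanned 2019 to 2245 per kilobase and Cdkn1a 1723 to 2027 over the libraries, so these neighbours overlapped. Cdkn1a exceeded Cdkn1b in 8 of 9 libraries by more than 1.5-fold per kilobase, the exception being the 2 m library 3 (791 against 738).

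Genes whose log2 levels followed a called gene most closely over the 9 libraries were listed as a description, since the libraries share the 3 ages. Cdkn1a was closest to Sbno2 (Pearson r = 0.973), Sptbn1 and Dock1, and Cdkn1b to Pik3cd (r = 0.980), 1110012L19Rik and Rian. Gadd45a was closest to Rab13 (r = 0.955), Rras and Dupd1, Gadd45b to Myadml2 (r = 0.967), Rara and Lrg1, and Gadd45g to Dusp7 (r = 0.979), Gm15408 and Frmd4b. No gene appeared beside more than 1 of the 5.

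Related genes were taken from fixed lists that hold none of the 10. Each count below is to be read against the shares of all genes called, 9.42% higher and 7.13% lower at 20 m and 7.53% higher and 6.24% lower at 28 m, both against 2 m, and a share near these is no result about a list. Of 20 tested targets of p53, 5 rose and 1 fell at 20 m, and 3 rose and 2 fell at 28 m, both against 2 m, and 1 fell from 20 m to 28 m. The list medians were 0.12, -0.07 and -0.03 on the log2 scale, beside -0.02, -0.01 and -0.00 over all genes. Eda2r, a receptor of the TNF receptor family, rose by 2.15 and 2.49 (limma, adjusted p = 2.23e-05 and 4.82e-06), from 589 to 941 normalized counts at 2 m to 3576 to 5524 at 28 m. Ddit4, an inhibitor of mTORC1 signalling, rose by 0.84 at 20 m (adjusted p = 0.0103, limma) and fell by 1.80 from there to 28 m (adjusted p = 0.000713), and Plk2 rose by 0.72 at 28 m (adjusted p = 0.0492). Of 12 regulators of p53, 3 rose at 20 m and 2 at 28 m against 2 m and none fell, with Atr at 0.66 and Trp53bp1 at 0.56 at 28 m (adjusted p = 0.0235 and 0.0101, limma) and Sirt1 at 0.44 at 20 m (adjusted p = 0.0279).

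Of 19 genes for CDKs, cyclins, the RB family, E2F factors and other inhibitors, 4 fell at 20 m, and 1 rose and 3 fell at 28 m against 2 m. Ccnd3 and Ccnd2, D-type cyclins that activate CDK4 and CDK6, fell by 1.15 and 0.88 at 28 m (adjusted p = 0.000283 for each, limma). Rb1, the retinoblastoma gene, rose by 1.02 at 28 m (adjusted p = 0.00173, limma). Cdkn1c, the remaining Cip/Kip gene and named here after its values were seen, fell by 0.67 at 20 m and 0.46 at 28 m against 2 m (adjusted p = 0.00271 and 0.0222, limma). The list's medians were -0.05 and -0.17 in these comparisons and -0.10 from 20 m to 28 m, where no gene was called.

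Of 18 cell division genes, 12 passed the filter, and 1 fell at 20 m and 1 rose at 28 m against 2 m, near the shares of all genes (7.13% lower and 7.53% higher). The fall in this count was Top2a, which passed the mean of 10 only through the 2 m library 1, so its lower values are given with no test. It was at 247 normalized counts in that library, which also held marrow markers, and at 0 to 18.9 in the other 8. Mcm6, a subunit of the replicative helicase, rose by 0.86 at 28 m (adjusted p = 0.0343, limma). Of 17 tested genes for factors secreted by senescent cells, 2 rose and 5 fell at 20 m, and 2 rose and 2 fell at 28 m. Cxcl10, an interferon-induced chemokine, passed the mean of 10 only through the older libraries and is among the higher genes of this count at both ages, so its values are given with no test. It was at 0 to 5.78 normalized counts at 2 m, 22.3 to 55.7 at 20 m and 81.5 to 165 at 28 m. Timp1, an inhibitor of matrix metalloproteinases, fell by 1.21 at 20 m (adjusted p = 0.0487, limma). The medians of this list were -0.18, -0.05 and 0.25 in the 3 comparisons.

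Of 11 other genes tied to senescence, 3 rose and 1 fell at 20 m, and 2 rose and 1 fell at 28 m. The anti-apoptotic genes Bcl2 and Bcl2l1 rose by 0.89 and 0.44 at 28 m (adjusted p = 0.0052 and 0.0465, limma), and Lmnb1, the lamin B1 gene, fell by 0.64 (adjusted p = 0.0134). Of 12 genes whose products work with Gadd45 proteins in MAP kinase signalling and DNA demethylation, 3 fell at 20 m and 5 at 28 m against 2 m and none rose, beside 7.13 and 6.24% of all genes lower. Tet1, a DNA dioxygenase, fell by 2.55 at 28 m (adjusted p = 0.000185, limma), from 191 to 367 normalized counts at 2 m to 35.9 to 60.7. Tet3 fell by 0.89 (adjusted p = 0.00478, limma) and Map2k3, a kinase of the p38 pathway, by 0.66 (adjusted p = 8.61e-05).

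**Figure D3:**
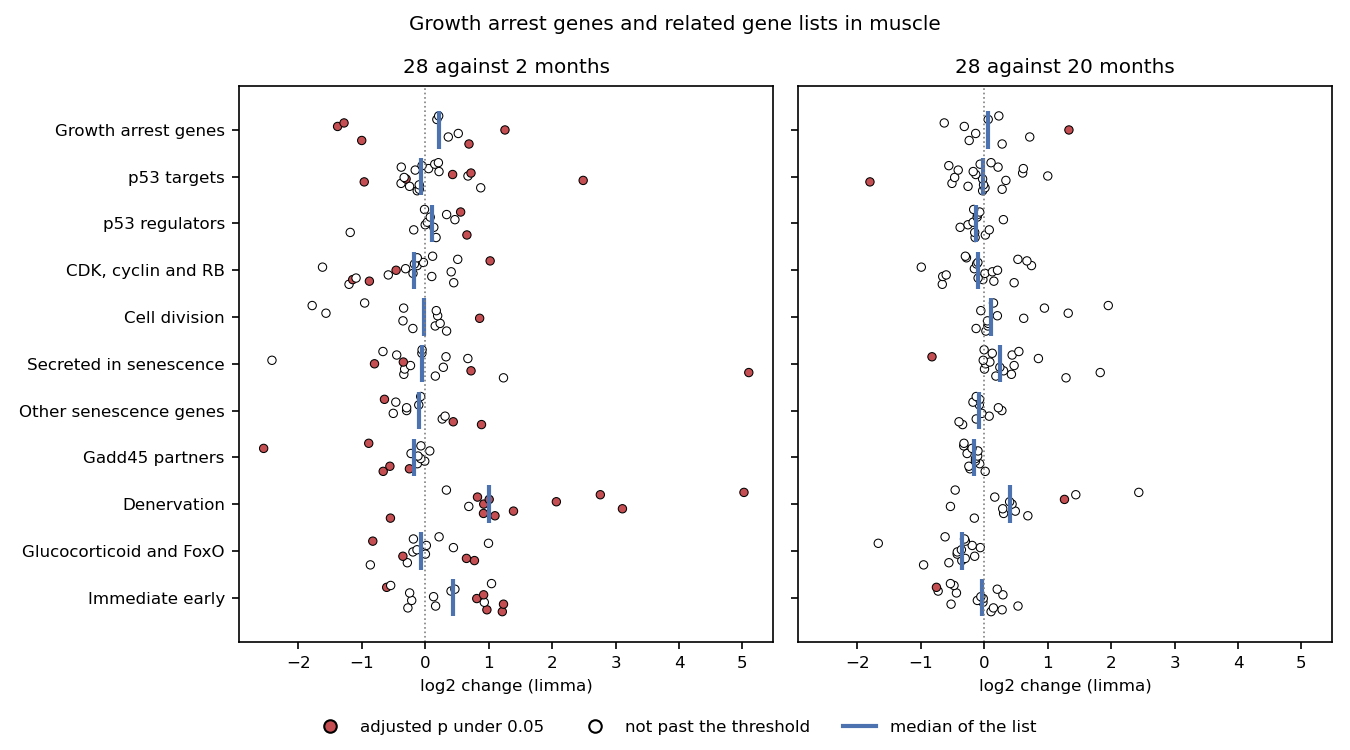
The log2 change of each tested gene of the growth arrest set and of 10 related lists at 28 m against 2 m and 28 m against 20 m (limma). Filled points have an adjusted p under 0.05, and bars mark list medians. The denervation list has a median of 1.01 at 28 m against 2 m and 0.40 at 28 m against 20 m.

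Of 13 denervation genes, 9 rose and 1 fell at 20 m, and 10 rose and 1 fell at 28 m against 2 m, with medians of 0.79 and 1.01. Runx1, a transcription factor known to be induced by denervation, rose by 2.76 at 28 m (adjusted p = 9.5e-05, limma). Chrng, the fetal acetylcholine receptor subunit, is among the higher genes of these counts but passed the mean of 10 only through the older libraries, so it is given with no test, at 0 to 8.81 normalized counts at 2 m, 14.7 to 52.3 at 20 m and 18.9 to 55.2 at 28 m. From 20 m to 28 m 1 gene of this list was called, Myog, a muscle transcription factor named here after its values were seen. Myog changed by -0.26 from 2 m to 20 m (adjusted p = 0.503, limma) and by 1.26 from 20 m to 28 m (adjusted p = 0.0473).

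Of 14 glucocorticoid and FoxO genes, 5 rose and 1 fell at 20 m, and 2 rose and 2 fell at 28 m. Pdk4, which encodes a kinase that inhibits pyruvate dehydrogenase, rose by 2.67 at 20 m (adjusted p = 0.000288, limma), and Foxo1 and Foxo3 rose by 1.13 and 0.95 (adjusted p = 3.93e-05 and 0.002). Of 16 immediate early genes, 7 rose at 20 m, and 5 rose and 1 fell at 28 m. Fos, Nr4a3 and Atf3 rose by 1.76, 1.58 and 1.11 at 20 m (adjusted p = 1.88e-05, 0.0111 and 0.0109, limma). Of 15 circadian clock genes, 4 rose and 2 fell at 20 m, and 2 rose and 3 fell at 28 m, where 7.53% of all genes rose and 6.24% fell. Gm129 (Ciart) rose by 1.45 at 20 m and fell by 1.36 from 20 m to 28 m (adjusted p = 0.000332 and 0.00722, limma), and Per2 and Cry2 rose by 1.04 and 1.00 at 20 m (adjusted p = 0.000209 and 3.93e-05). The time of day of tissue collection is not given in the sources used here.

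Markers of other cell types moved with age as well, and their part in the changes of the 10 genes was not tested. Of 6 fibroblast markers 4 fell at each older age, and their sum was 52193 to 106750 normalized counts at 2 m, 21951 to 24802 at 20 m and 21935 to 29641 at 28 m. Of 6 adipocyte markers 4 fell at 20 m and 1 at 28 m, with sums of 7220 to 10884, 4819 to 5344 and 4706 to 6886 at the 3 ages. Of 10 fibre markers 4 rose at each older age, with Myh7, the slow myosin, at 3.06 and 3.29 (adjusted p = 0.00949 and 0.00723, limma) and a 2 m range from 2773 to 44700 normalized counts. The other 6 were not called, and the sum of the 10 was 5216374 to 5900710 normalized counts at 2 m, 4941267 to 5636688 at 20 m and 4741585 to 5001444 at 28 m, lower in each 28 m library than in any 2 m library. None of 4 satellite cell and 5 endothelial markers was called at 20 m or 28 m against 2 m. Of 6 macrophage markers 2 fell at 20 m and none was called at 28 m (sums of 2814 to 4247, 2538 to 2602 and 2753 to 3786), and of 4 Schwann cell markers 2 fell at 20 m. Of 5 B and plasma cell and 2 tested erythroid markers none was called. Of 6 neutrophil and marrow markers and 4 bone and cartilage markers in the fit, Mpo and Col2a1 passed the mean of 10 only through the 2 m libraries, so their lower values are given with no test. Mpo was at 314, 26.4 and 4.33 at 2 m and at 0 in all 6 older libraries, Col2a1 was at 825, 31.7 and 97.5 at 2 m and at 1.69 to 9.49 in the older ones, and the erythroid marker Hba-a1 and the cartilage marker Matn1 were at 0 in all 9. Without the 2 m library 1 the genes called at 28 m against 2 m were still Cdkn1a, Cdkn1b, Gadd45a, Gadd45b and Gadd45g, and at 20 m against 2 m only Cdkn1b.

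MBD-seq counted reads in 500-base bins. The values given are sums over the 5 bins that overlap the 1000 bases on either side of a start. Each was divided by the size factor of the library. The windows at the Cdkn2c starts share bins, so the values of the 13 starts are not all separate. With 1 pool per age there is no test between ages, and the exact Poisson intervals cover counting error only. Over the 13 starts of the 10 genes the median log2 change from 2 m to 28 m in muscle was 0.70, with 11 starts higher and 2 lower. Over 19811 starts it was 0.26, with 60.7% higher. In T cells the corresponding medians were 0.45 and 0.24. The median over the 13 starts moved by more than 1.5 times with the window and scaling: in muscle it was 1.28 within 500 bases, 0.34 within 2000 bases and 1.147 with libraries rescaled to equal sums, and in T cells it was 0.74 within 2000 bases and 0.14 with equal sums.

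In muscle, the value at 2 m went with the size of the change. Among all starts under 10 normalized counts at 2 m in muscle, the median log2 change was 1.99 and 99.2% were higher at 28 m, and the 5 such starts of the 10 genes changed by 1.52 to 2.85. Among starts from 10 to 50 the median was 0.68 and 87.8% were higher, and the 6 such starts of the 10 genes changed by 0.03 to 0.99. Among starts from 50 to 100 the median was -0.06, and the 2 such starts, Cdkn2b and Mdm2, changed by -0.13 and -0.67. The values of the 5 starts lay on both sides of the median of all starts of that level. In T cells no such relation was seen, with medians of 0.30, 0.16 and 0.20 for starts under 10, from 10 to 50 and from 50 to 100 normalized counts at 2 m. There the 5 starts under 10 changed by -1.80 to 2.86, the highest being the downstream start of Cdkn2a.

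**Figure D4:**
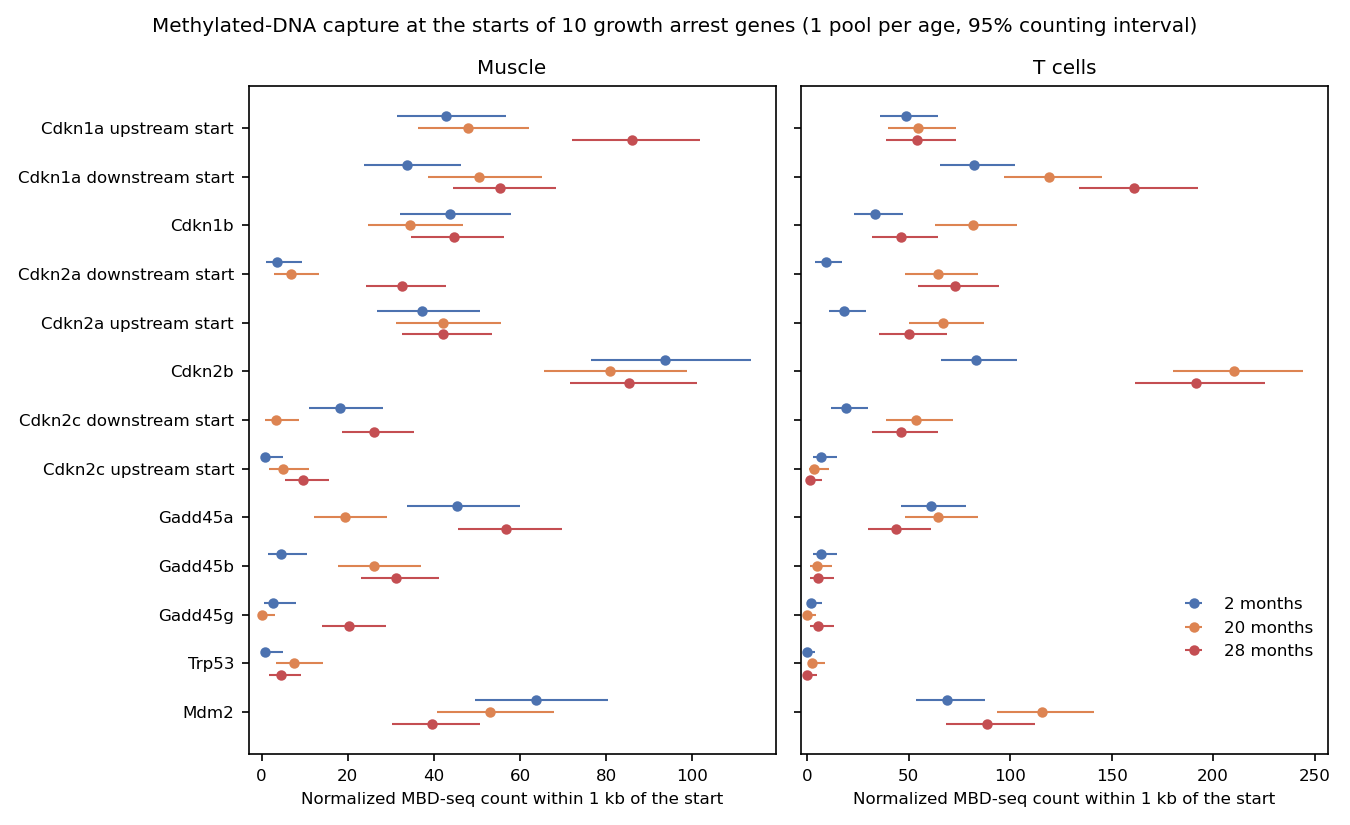
Normalized MBD-seq counts at the 13 starts in muscle and T cells at 2 m, 20 m and 28 m, 1 pool per age. Each value sums the bins that overlap 1 kb on either side of a start. The 95% exact Poisson intervals cover counting error only. At the downstream start of Cdkn2a the 28 m values, 32.5 in muscle and 72.7 in T cells, exceed the 2 m values of 3.64 and 9.14.

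At the downstream start of Cdkn2a, shown above with its 12 CpGs, muscle gave 4, 8 and 51 reads at 2 m, 20 m and 28 m, or 3.64, 6.74 and 32.5 normalized counts (28 m interval 24.2 to 42.7). In T cells it gave 9.14, 64.5 and 72.7. The rise was thus seen at 20 m in T cells and at 28 m in muscle. At the upstream start muscle was at 37.3, 42.1 and 42.1 and T cells at 18.3, 66.9 and 50.2.

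At Gadd45b, whose RNA fell, muscle MBD counts were 4.55, 26.1 and 31.2 at the 3 ages (5, 31 and 49 reads), and T cells stayed between 4.87 and 7.11. At Gadd45g, whose RNA also fell, muscle gave 3, 0 and 32 reads, or 2.73, 0 and 20.4 normalized counts, with an upper bound of 3.11 at 20 m. At Gadd45a, whose RNA rose at 28 m, muscle was at 45.5, 19.4 and 56.7. The intervals of Gadd45a at 2 m (33.8 to 60.0) and 28 m (45.6 to 69.8) overlapped, and that at 20 m (12.3 to 29.1) lay below both.

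At Cdkn1b, whose RNA fell at both older ages, MBD counts in muscle were 43.7, 34.5 and 44.6 with overlapping intervals. At the upstream start of Cdkn1a they were 42.8, 48.0 and 86.0, and at its downstream start 33.7, 50.5 and 55.5. At Mdm2 they were 63.7, 53 and 39.5, and at Cdkn2b 93.7, 80.8 and 85.4 in muscle but 83.2, 211 and 192 in T cells. At the Cdkn2c starts muscle values were 18.2, 3.37 and 26.1 downstream and 0.91, 5.05 and 9.56 upstream, and Trp53 stayed under 8 in both tissues at each age. Among the 5 genes called at 28 m, Gadd45b and Gadd45g had lower RNA and higher MBD counts than at 2 m. Cdkn1b, also with lower RNA, had MBD counts within counting error. Of the genes with higher RNA, Cdkn1a had higher counts at its upstream start, with 2 CpGs in its promoter window. Its downstream start, with 23 CpGs, was also higher, by 0.70 on the log2 scale (interval of counting error 0.15 to 1.32). The separate intervals of this downstream start at 2 m (23.7 to 46.4) and 28 m (44.4 to 68.4) overlapped slightly. Gadd45a, with higher RNA, had MBD counts within counting error.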

How the data were processed

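RNA-seq libraries were made from poly-A RNA of hindlimb muscle of 3 mice at each of 3 ages (9 samples), and MBD-seq libraries from DNA pooled from 3 mice per age. The authors trimmed the reads (Trim Galore), aligned them to mm10 (Bowtie2 for MBD-seq, HISAT2 for RNA-seq, while the submitters' processing notes list TopHat), and counted them per RefSeq gene with htseq-count or per 500-base bin with bedtools. The deposited signal values are these counts divided by 1 DESeq2 size factor per library, called normalized counts here. All RNA values (100%) were whole multiples of 1 read within a tolerance of 0.01 read, so reads could be recovered. The 5 rows that name no gene, 37.9 to 47.7% of the reads, were left out. Summed over all bins, MBD-seq read counts came to 135254786 to 141889499 in muscle and 188758989 to 200456498 in T cells. A read that crosses a bin edge may be counted in each bin. These are not totals of sequenced reads, for which the study gives a lower average per age group. Labels give 2 rounds of muscle capture, and the columns used name the age but no round. Columns of other samples numbered 0.

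The 9 libraries were fitted together with limma 3.58.1 (limma-trend, R 4.3.3) on log2 of the normalized count plus a pseudocount of 1, for 13178 genes with a mean of at least 10, which understates changes of low genes. Separate mice are the replicates as far as the study's methods state. Alternatives changed the pseudocount (0.1, 5), the filter (none, or a mean of 50), the scaling (equal sums, quantiles) and the design (array weights, the library number as a block, a term for number 3, the compared ages alone), used the recovered reads in edgeR 4.0.16 or DESeq2 1.42.0, or left out single libraries. Rescaling without Rn45s, the fit to the libraries numbered 1 and 2, and the late-minus-early contrast were chosen after seeing the data. On simulated 28 m against 2 m counts (13109 genes), limma called 76.5% of 98 genes changed by 2-fold, 99.0% of 97 changed by 4-fold and 6 unchanged genes.

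The 10 genes and all lists were chosen with earlier results of these data known. Named by rule were the 10 genes, up to 3 called genes per list with the largest change (without any call, up to 2 of the highest mean), and the 3 nearest genes by Pearson r. Some genes that this rule selects are not reported here. Older symbols (Lrdd, Gm129, Emr1, Igj, Beta-s) were matched through RefSeq synonyms. Promoter sequences, positions and starts are RefSeq's on GRCm38.p6, the same assembly as mm10, and all 10 genes matched. The exact permutation test is two-sided, and 3 against 3 libraries cannot give a p under 0.1.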

Additional observations from a re-analysis of the deposited data

Results flagged for a closer look

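Gadd45a changed differently in the 2 intervals of age: its log2 change from 20 m to 28 m exceeded that from 2 m to 20 m by 1.41 (SE 0.215, adjusted p = 0.00379, limma). The result was picked out by a test of the difference itself, a contrast chosen after the values had been seen and with the 20 m libraries in both intervals. It was higher at 28 m than every 20 m library in 3 of 3 libraries, and the difference was between 1.24 and 1.62 in 22 alternative fits, in all of which it was called. For Cdkn1b the same difference was 0.53 (adjusted p = 0.0985, limma), which did not pass.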

How the results depend on the processing

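The numbers of the 9 genes called, 3, 5 and 1 at 20 m against 2 m, 28 m against 2 m and 28 m against 20 m, were 1 to 3, 4 to 5 and 1 to 2 when each library was left out in turn, and the 5 against both older ages were 4 to 6. The count of 1 at 20 m came without the 2 m library 1, and the count of 2 at 28 m against 20 m without the 28 m library 2. Cdkn1b in both comparisons with 2 m, Gadd45b and Gadd45g at 28 m against 2 m, and Gadd45a at 28 m against both other ages kept their direction and call in all alternatives. With the library number as a block the counts were 4, 5 and 1, the additional call being Cdkn1a at 20 m (adjusted p = 0.0329, limma), and no other call among the 9 genes changed. The numbers were not treated as pairs, since the correlations of equal-numbered libraries passed 0.1 for number 3 (0.109 to 0.161) but not for numbers 1 and 2 (-0.04 to 0.0998). The libraries numbered 3 thus deviated together across ages, and a term for them gave the same additional call (adjusted p = 0.0302, limma). Over all genes, rescaling to the same sum left 586 and 554 genes called at 20 m and 28 m against 2 m, in place of 2181 and 1814, and 24 in place of 50 at 28 m against 20 m. Rescaling to the same sum without Rn45s, chosen after seeing the data, left 1948, 1773 and 54. DESeq2 called 228 at 28 m against 20 m, and the cause was not tested.

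Sign changes were seen in uncalled differences near 0. Mdm2 at 28 m against 20 m was -0.037 with only the libraries numbered 1 and 2, and Cdkn2b against both older ages was -0.0068 with edgeR and -0.014 with DESeq2. With single libraries left out, Gadd45a at 20 m ranged from -0.18 to 0.049, Trp53 at 20 m from -0.086 to 0.046, Cdkn2b against both older ages from -0.055 to 0.069, Cdkn2c at 28 m against 20 m from -0.30 to 0.061 and Mdm2 at 28 m against 20 m from -0.0087 to 0.17. The median MBD-seq change of 0.70 in muscle was 0.34 to 1.28 with other windows, scaling or pseudocounts, and that of 0.45 in T cells 0.14 to 0.74. The 1 pool per age of MBD-seq allows no test between ages, and PCR reads without molecular identifiers are not independent molecules.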
